A study of Saccharomyces cerevisiae with 15 samples.

Results

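The comparison concerns what the transcriptome of the budding yeast Saccharomyces cerevisiae looks like when both contact sites for the chaperone Hsp70 are mutated in Hsf1, at the normal growth temperature. Its members are 6 of the 15 libraries of the series: the 3 with an HSF1 allele mutated at the amino-terminal and the carboxyl-terminal site (mNmC, grown at 30 °C) and the 3 with the wild-type allele (30 °C). They were taken by their labels. Cultures of every group grew in rich YPD medium to mid-log phase, and mRNA was read as FPKM, a level per gene length and per reads in the library. The other 3 groups, used here only beside the double mutant, carry the amino-terminal mutation alone (mN, 30 °C), the carboxyl-terminal mutation alone (mC, 30 °C) or the wild-type allele after 15 min at 37 °C. Each group has 3 biological replicates. The labels do not say whether the replicates of a group came from 1 clone, nor how the HSF1 alleles were brought into the strains. Of 7126 genes in the table, 6399 reached 1 FPKM in 3 or more libraries and were tested.

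Hsf1 is the transcription factor that drives the genes of the heat shock response. In yeast it is essential, and it keeps a core set of chaperone genes active also without heat. Hsp70 folds proteins with the help of J-proteins, which deliver clients, and of exchange factors, which release them. When Hsp70 binds Hsf1 it holds the factor back, so that free Hsp70 closes a feedback loop on its own genes. A separate pair of factors, Msn2 and Msn4, drives the general stress genes.

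In 1 library of the 3 the profile went against the label. The library with the label mNmC replicate 3 had, over the tested genes, a Spearman correlation averaging 0.997 with wild type at 37 °C replicates 1 and 2 and 0.921 with the other mNmC libraries. Replicates 1 and 2 of mNmC had 0.996 between them. The library labelled replicate 3 of wild type at 37 °C had 0.996 with mNmC replicates 1 and 2, and 0.918 with the other libraries of its own label. Both libraries kept their labels, and each result is given as labelled (15 libraries in the fit) and without these 2 libraries (13 libraries). In the library labelled mNmC replicate 3, 745 genes stood at more than 2-fold the mean of the other mNmC libraries and 559 at less than 0.5 of it. The 6 libraries held 15462618 to 25409519 reads.

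HSF1 (YGL073W), the altered gene itself, stood at 154, 152 and 158 FPKM in wild type and at 52.1, 59.4 and 149.9 FPKM in mNmC. The first and second mNmC libraries lay below 0.5 of wild type and the library labelled replicate 3 lay just under it, at the level of wild type at 37 °C (159 and 148 FPKM in replicates 1 and 2). As labelled HSF1 did not pass the test (log2 fold change -0.99 ± 0.36 SE, adjusted p = 0.061), and with 13 libraries it fell by 1.46 ± 0.10 on the log2 scale (adjusted p = 1.82e-06). The mutations lie in the coding sequence, so this level does not check the genotype. HIS3 (YOR202W), an enzyme of histidine synthesis often used as a marker in yeast strains, stood at 497, 496 and 438 FPKM in wild type and at 194, 199 and 443 FPKM in mNmC. It too was low in replicates 1 and 2 of mNmC alone, and its change with 13 libraries was -1.27 ± 0.19 (adjusted p = 0.000299).

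Far more genes were called higher than lower in mNmC. As labelled, 1567 genes were called higher and 154 lower (24.5% and 2.41% of those tested), at an adjusted p under 0.05 in limma. With 13 libraries, 2598 were called higher and 473 lower (40.6% and 7.39%). Both fits called 1523 of these genes higher and 149 lower, and no gene was called in opposite directions. Changes of at least 1 on the log2 scale were seen in 358 higher and 36 lower genes as labelled, and in 378 and 56 with 13 libraries. In 53.0% of the tested genes the 3 mNmC libraries all lay above or all lay below the 3 of wild type. Scaling libraries to the same upper quartile moved the median change of all genes from 0.27 to 0.06 as labelled and from 0.25 to 0.05 with 13 libraries. Calls then split into 650 higher and 364 lower as labelled, and into 1383 higher and 1033 lower with 13 libraries. These counts, of 6399 tested genes, are the background for list counts with upper-quartile scaling below. Background percentages printed with the lists hold without that scaling. Levels here are shares of a library, and in bulk cultures a smaller share of cells with a transcript and less RNA per cell cannot be told apart.

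The promoters of the chaperone genes hold the sites that Hsf1 binds, and the stretches shown here put those sites next to the changes described after them. They are R64 sequence from RefSeq, read 5′ to 3′ toward the gene by gene identifier. Capitals mark each heat shock element pair, an inverted repeat of the GAA unit written GAANNTTC or TTCNNGAA, searched in both forms. The first 8 are the chaperone genes of the Hsf1 list with at least 3 such units in a row within 250 bases before and 50 after the start codon, and SSA4, the gene with the largest rise, has its pair farther upstream.
SSA2: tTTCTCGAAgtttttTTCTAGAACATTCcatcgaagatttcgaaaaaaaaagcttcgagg
HSP42: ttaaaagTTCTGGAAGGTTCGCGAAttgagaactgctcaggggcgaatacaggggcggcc
HSP78: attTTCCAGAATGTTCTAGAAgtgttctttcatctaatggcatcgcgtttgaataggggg
HSP60: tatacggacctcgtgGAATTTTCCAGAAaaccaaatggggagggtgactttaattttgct
HSP10: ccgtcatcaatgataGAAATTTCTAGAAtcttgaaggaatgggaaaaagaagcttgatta
STI1: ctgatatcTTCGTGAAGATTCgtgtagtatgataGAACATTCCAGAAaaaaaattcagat
FES1: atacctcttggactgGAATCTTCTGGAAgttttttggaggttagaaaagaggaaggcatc
SSE1: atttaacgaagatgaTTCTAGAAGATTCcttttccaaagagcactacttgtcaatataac
SSA4: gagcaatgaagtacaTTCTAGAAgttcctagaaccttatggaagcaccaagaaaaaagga
These stretches lie at chrXII:97674-97733, minus strand (SSA2), chrIV:806371-806430, plus strand (HSP42), chrIV:974434-974493, minus strand (HSP78), chrXII:665168-665227, minus strand (HSP60), chrXV:370960-371019, minus strand (HSP10), chrXV:380803-380862, plus strand (STI1), chrII:444820-444879, minus strand (FES1), chrXVI:352417-352476, minus strand (SSE1) and chrV:364321-364380, plus strand (SSA4), upstream of the start codon in the R64 build. The authors may have used another build (not given in the sources used here). For HSP12 and DDR2, general stress genes that also rose, a stretch each is shown. Capitals in them mark the stress response element of Msn2 and Msn4 (AGGGG or CCCCT). Both were picked for the most elements clear of their ends within 500 bases before the start codon. The stretch of HSP12, 464 to 405 bases before it, lies outside the window of 250 bases before and 50 after. The stress response element was not marked in the chaperone stretches, where those of HSP42 and HSP78 also hold it in lower case.
HSP12: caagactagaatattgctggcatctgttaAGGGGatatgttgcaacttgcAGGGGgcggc
DDR2: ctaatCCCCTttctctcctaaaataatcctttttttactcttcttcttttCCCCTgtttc
The HSP12 stretch lies at chrVI:106792-106851, plus strand, and that of DDR2 at chrXV:231949-232008, minus strand.

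A heat shock element pair was found in the 300-base window of 18 of the 24 Hsf1 list genes (75%), against 22.8% of the 5810 tested genes with a window, and 3 units in a row in 8 of 24 (33.3%), against 45 of 5810 (0.775%). Of these 45 genes, 26 were called higher with 13 libraries (57.8%), against 42.2% of genes without the row of 3 units. The 26 include all 8 genes of the Hsf1 list, which was written with earlier results known, so the shares are not independent of that list. A single pair went with less: 43.4% of genes with it were called higher and 42.0% of those without. Among the 315 genes with a window that were called higher by at least 1 on the log2 scale, 30.2% held a stress response element, against 21.9% of all. Of the 24 Hsf1 list genes, 8 held this element (33.3%). A match is a run of letters, and binding was not measured.

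The cytosolic Hsp70 genes, of which yeast has 4, all rose as labelled and with 13 libraries (background 24.5% and 40.6%). SSA4 (YER103W), the Hsp70 that is nearly silent without stress, stood at 55.2, 58.8 and 55.1 FPKM in wild type and at 1105, 1063 and 2007 FPKM in mNmC. All 3 mNmC libraries were far above wild type, and the library labelled replicate 3 was the highest. The change was 4.54 ± 0.26 (adjusted p = 4.92e-07) as labelled and 4.24 ± 0.09 (adjusted p = 1.75e-10) with 13 libraries, the largest rise by the naming rule. SSA3 (YBL075C), the other stress-induced member, stood at 59, 63.8 and 64.1 FPKM in wild type and at 183, 192 and 573 FPKM in mNmC. Its groups did not overlap either, and the rise was 2.11 ± 0.47 (adjusted p = 0.0064) as labelled and 1.58 ± 0.10 (adjusted p = 1.1e-06) with 13 libraries.

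The abundant pair SSA1 and SSA2 showed the reverse order of the mNmC libraries. SSA1 (YAL005C) stood at 964, 1021 and 968 FPKM in wild type and at 2787, 2492 and 2108 FPKM in mNmC. SSA2 (YLL024C), which is expressed without stress, stood at 1699, 1748 and 1698 FPKM in wild type and at 3232, 2972 and 2394 FPKM in mNmC. For both genes mNmC lay above wild type in every library, with the library labelled replicate 3 the lowest of the 3. SSA1 rose by 1.42 ± 0.11 (adjusted p = 4.28e-06) and SSA2 by 0.85 ± 0.11 (adjusted p = 0.000105) with 13 libraries. SSA1 and SSA2 are near-identical in sequence, so reads that fit both could be split or lost between them.

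Among the partners of cytosolic Hsp70, 7 of 14 genes rose and none fell as labelled, and 9 rose with 13 libraries (background 24.5% and 40.6%). With upper-quartile scaling 2 and 7 rose. SIS1 (YNL007C), an essential J-protein, stood at 374, 409.9 and 387 FPKM in wild type and at 1315, 1324 and 1134 FPKM in mNmC (1.75 ± 0.14, adjusted p = 5.08e-06, 13 libraries). Its mNmC libraries were close together, and all lay far above wild type. FES1 (YBR101C), an exchange factor, stood at 156, 159 and 162 FPKM in wild type and at 505, 519 and 226 FPKM in mNmC (1.68 ± 0.07, adjusted p = 3.44e-08). YDJ1 (YNL064C), in wild type the most abundant J-protein gene of the list, stood there at 542, 541 and 558 FPKM. In mNmC it stood at 1238, 1282 and 584 FPKM. Replicates 1 and 2 were more than 2-fold above wild type for both genes, while the library labelled replicate 3 lay much closer to it. YDJ1 accordingly passed the test with 13 libraries (1.20 ± 0.07, adjusted p = 5.42e-07) and not as labelled (0.83 ± 0.32, adjusted p = 0.0688).

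Rises with 13 libraries were also called for the J-protein genes APJ1 (YNL077W, 1.33 ± 0.11), JJJ3 (YJR097W, 0.91 ± 0.13) and CAJ1 (YER048C, 0.43 ± 0.07). The Hsp110 exchange factors SSE1 (YPL106C, 0.60 ± 0.10) and SSE2 (YBR169C, 0.64 ± 0.08) rose as well. Over these 5 genes adjusted p lay between 6.6e-06 and 0.000707. The remaining members of the list lay between 0.01 and 0.45 with 13 libraries, and of those DJP1 alone passed.

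Hsp90 and its cochaperones gave 8 rises and no fall among 14 genes as labelled, and 10 rises with 13 libraries (background 24.5% and 40.6%). With upper-quartile scaling there were 5 and 7 rises. HSP82 (YPL240C), the inducible Hsp90, stood at 143, 156 and 149 FPKM in wild type and at 878, 887 and 796 FPKM in mNmC. The 3 mNmC libraries lay within a narrow band about 6-fold over wild type, so the 15-library and the 13-library values were nearly the same (2.51 ± 0.14 and 2.56 ± 0.13, adjusted p = 2.86e-07 and 2.2e-07). STI1 (YOR027W), the adaptor that joins Hsp70 and Hsp90, stood at 166, 181 and 177 FPKM in wild type and at 559.8, 566 and 564 FPKM in mNmC. For STI1, replicates 1 and 2 of mNmC were nearly equal and the library labelled replicate 3 lay beside them. The change was 1.69 ± 0.07 (adjusted p = 4.1e-08, 13 libraries). HSC82 (YMR186W), the constitutive Hsp90, rose by 1.09 ± 0.15 (adjusted p = 0.000188, 13 libraries), from 656, 644 and 643 FPKM to 1369, 1386 and 1020.3 FPKM. HSP82 and HSC82 are close paralogs as well. The cyclophilin gene CPR6 (1.29 ± 0.10) and the Hsp90 activators AHA1 (0.89 ± 0.12) and HCH1 (0.76 ± 0.11) also rose with 13 libraries. TAH1 (YCR060W, 1.01 ± 0.38, adjusted p = 0.0457) lies on chromosome III, whose genes are taken up below.

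Protein disaggregation and sorting genes rose in 5 of 8 cases as labelled and in 7 of 8 with 13 libraries (background 24.5% and 40.6%). BTN2 (YGR142W), which sorts misfolded protein into deposits, stood at 63.5, 62.0 and 64.2 FPKM in wild type and at 589.9, 610.0 and 205 FPKM in mNmC. It was thus over 9-fold higher in replicates 1 and 2 of mNmC and over 3-fold higher in the library labelled replicate 3. With 13 libraries it rose by 3.23 ± 0.11 (adjusted p = 1.02e-08), and its paralog CUR1 (YPR158W) by 1.52 ± 0.15 (adjusted p = 2.32e-05). HSP104 (YLL026W), the disaggregase, stood at 195, 202 and 198 FPKM in wild type and at 616, 603 and 1083 FPKM in mNmC (1.61 ± 0.08, adjusted p = 1.5e-07). HSP42 (YDR171W), a small heat shock protein, rose by 1.91 ± 0.13 (adjusted p = 1.58e-06), and MBF1 (YOR298C-A), a coactivator, by 1.19 ± 0.15 (adjusted p = 0.000112). HSP26 (YBR072W), the other small heat shock protein, behaved differently: it stood at 158, 176 and 172 FPKM in wild type and at 252, 225 and 8599 FPKM in mNmC. Only the library labelled replicate 3 was high, and its level was that of wild type at 37 °C (8666 and 8896 FPKM in replicates 1 and 2). With 13 libraries the rise of HSP26 was 0.49 ± 0.18 (adjusted p = 0.0403).

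**Figure D1:**
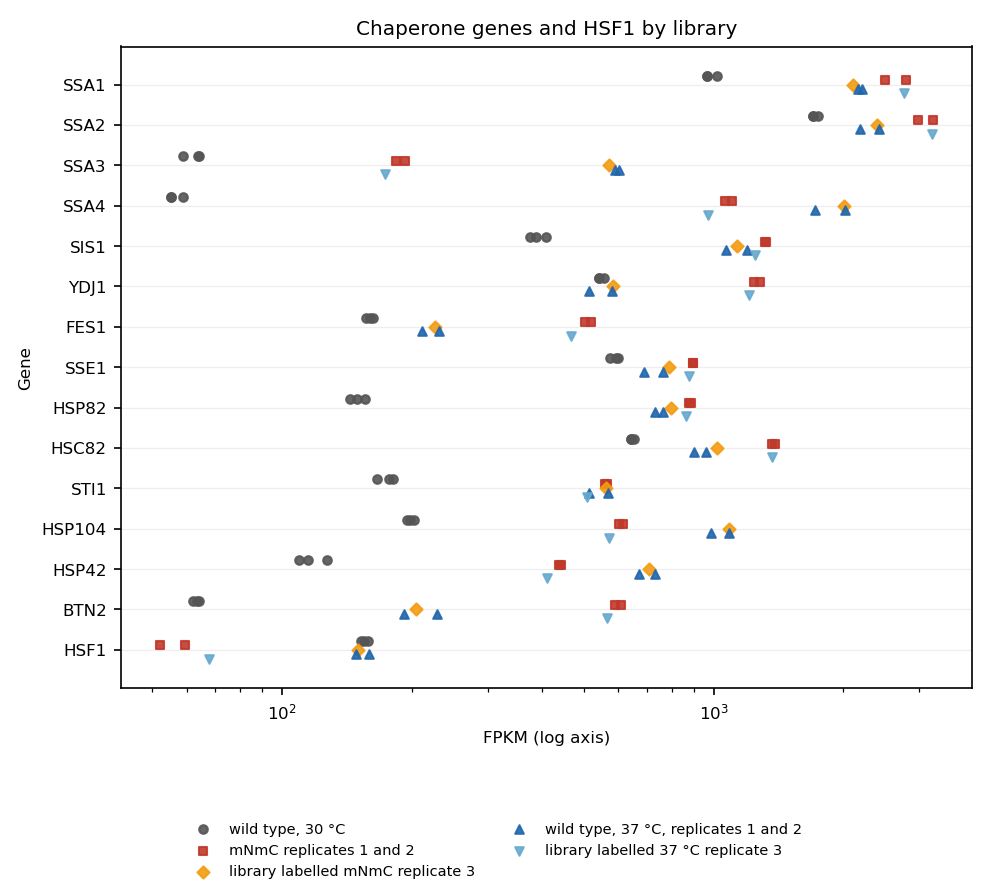
FPKM (log axis) of 14 chaperone genes and HSF1 in each library, with the 3 wild-type libraries at 30 °C as circles, mNmC replicates 1 and 2 as squares and the other 3 symbols as in the key. The mNmC squares stand to the right of the circles for every chaperone, as BTN2 at 589.9 and 610.0 FPKM against 62.0 to 64.2, and to the left for HSF1, while the library labelled mNmC replicate 3 lies with wild type at 37 °C.

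Over the whole Hsf1 list of 24 chaperone genes, 20 rose and none fell as labelled, and 22 rose with 13 libraries (background 24.5% and 40.6%). The 2 without a call were SGT2, a factor of tail-anchored protein delivery, and MDJ1, a mitochondrial J-protein on chromosome VI. The median change of the list was 1.15 as labelled and 1.31 with 13 libraries, against 0.27 and 0.25 for all tested genes. With upper-quartile scaling 15 and 20 were called higher and none lower. The summed FPKM of the list ran from 11145 to 11379 in wild type and from 22495 to 24839 in mNmC, with no overlap. The list was written with earlier results of these data known, so its direction is described and not tested.

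In the mitochondria, 5 of 11 chaperone genes rose and none fell as labelled, and 7 rose with 13 libraries (background 24.5% and 40.6%). With upper-quartile scaling 1 and 2 rose. HSP78 (YDR258C), the mitochondrial disaggregase, stood at 38.7, 37.2 and 36.4 FPKM in wild type and at 122, 119 and 233 FPKM in mNmC. Every mNmC library was above wild type by more than 3-fold (1.67 ± 0.13, adjusted p = 4.63e-06, 13 libraries). The chaperonin genes HSP10 (YOR020C, 0.65 ± 0.15, adjusted p = 0.0041) and HSP60 (YLR259C, 0.36 ± 0.07, adjusted p = 0.00144) and the mitochondrial Hsp70 gene SSC1 (YJR045C, 0.33 ± 0.08, adjusted p = 0.00557) rose less. The chaperones of translating ribosomes did not rise. Of these 7 genes none was called as labelled, and with 13 libraries 1 was called lower, SSZ1 (YHR064C, -0.18 ± 0.06, adjusted p = 0.0294). The ribosome-bound Hsp70 gene SSB1 (YDL229W) stood at 647, 659 and 649 FPKM in wild type and at 501, 551 and 204 FPKM in mNmC (-0.31 ± 0.18, adjusted p = 0.17, 13 libraries). Its J-protein partner ZUO1 (YGR285C) gave -0.14 ± 0.08 (adjusted p = 0.188). Of 14 genes of the cytosolic chaperonin and prefoldin, none was called as labelled and 1 with 13 libraries.

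Of 21 genes of ubiquitin and quality control ligases, 8 rose as labelled and 9 with 13 libraries, and none fell, against 24.5% and 40.6% of all tested genes called higher. With upper-quartile scaling 3 rose and 1 fell as labelled, and 4 rose and 2 fell with 13 libraries. UBI4 (YLL039C), the stress-induced ubiquitin gene, stood at 286, 279 and 280.5 FPKM in wild type and at 703, 708 and 1166 FPKM in mNmC (1.32 ± 0.09, adjusted p = 1.58e-06, 13 libraries). All mNmC libraries were more than 2-fold above wild type. RPN4 (YDL020C), the factor that drives proteasome genes, stood at 46.9, 47.3 and 54.9 FPKM in wild type and at 118, 129.6 and 65.4 FPKM in mNmC. It rose by 1.30 ± 0.13 (adjusted p = 2.01e-05), and 27 of 34 proteasome genes (79.4%, against 1.22% of all) held its motif GGTGGCAAA or TTTGCCACC in their window. Of the 34 proteasome genes, 3 rose and none fell as labelled, and 15 rose and 3 fell with 13 libraries. The median change was 0.28, close to the 0.25 of all tested genes, and with upper-quartile scaling 2 rose and 3 fell. The 3 that fell, the peptidase subunit PRE4 (YFR050C, -0.76 ± 0.24) and the lid subunits RPN12 (YFR052W, -0.74 ± 0.08) and RPN11 (YFR004W, -0.53 ± 0.07), are the 3 proteasome genes on chromosome VI.

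The levels of general stress genes in mNmC depended on the library labelled replicate 3. Of 28 genes of the Msn2/4 list, 8 rose and none fell as labelled, and 19 rose and 1 fell with 13 libraries. The background was 24.5% and 40.6% of all tested genes called higher. With upper-quartile scaling 4 rose and none fell as labelled, and 19 rose and 3 fell with 13 libraries. The median change was 1.49 as labelled and 0.65 with 13 libraries, and over this list the library labelled replicate 3 stood at a median of 6.6 times the mean of the other mNmC libraries. HSP12 (YFL014W), a membrane-associated stress protein encoded on chromosome VI, stood at 58.3, 55.2 and 45.2 FPKM in wild type and at 509, 740.1 and 15100 FPKM in mNmC. The groups did not overlap, and the library labelled replicate 3 stood over 20-fold above the other mNmC libraries. The change was 5.06 ± 1.38 (adjusted p = 0.0187) as labelled and 3.52 ± 0.38 (adjusted p = 3.94e-05) with 13 libraries. DDR2 (YOL052C-A), a small stress protein gene, stood at 304, 303 and 299 FPKM in wild type and at 1138, 1189 and 11946 FPKM in mNmC (1.94 ± 0.07, adjusted p = 2.02e-08, 13 libraries). CYC7 (YEL039C), a cytochrome c isoform, rose by 2.43 ± 0.29 (adjusted p = 7.97e-05) and NQM1 (YGR043C), a transaldolase, by 1.47 ± 0.10 (adjusted p = 1.53e-06). MSN4 itself rose by 0.50 ± 0.09 (adjusted p = 0.00121), from 24.7, 24.6 and 26.6 FPKM to 37.5, 34.7 and 34.8 FPKM.

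Storage carbohydrate genes split. Of 17 genes of trehalose and glycogen, 2 rose and 1 fell as labelled, and 6 rose and 4 fell with 13 libraries. The background was 24.5% and 40.6% higher, and 2.41% and 7.39% lower. GPH1 (YPR160W), the glycogen phosphorylase, rose by 0.95 ± 0.14 (adjusted p = 0.000276), GDB1 (YPR184W), the debranching enzyme, by 0.86 ± 0.11 (adjusted p = 0.000123), and NTH1 (YDR001C), a trehalase, by 0.78 ± 0.08 (adjusted p = 1.89e-05). GSY1 (YFR015C), a glycogen synthase gene on chromosome VI, stood at 27.6, 30.5 and 28.4 FPKM in wild type and at 8.85, 7.35 and 61.4 FPKM in mNmC. Replicates 1 and 2 of mNmC were below wild type and the library labelled replicate 3 above it, so the groups overlapped (-1.72 ± 0.09, adjusted p = 3.01e-07, 13 libraries).

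Of 18 genes of the unfolded protein response of the endoplasmic reticulum, 2 rose as labelled, and 3 rose and 3 fell with 13 libraries. With upper-quartile scaling and 13 libraries 2 rose and 6 fell. The background without that scaling was 24.5% and 40.6% higher, and 2.41% and 7.39% lower. The oxidase gene ERO1 (YML130C, 0.89 ± 0.07, adjusted p = 3e-06) and the inositol synthesis gene INO1 (YJL153C, 1.24 ± 0.09, adjusted p = 2.22e-06) rose. HAC1 (YFL031W), the transcription factor of this response, lies on chromosome VI. It stood at 345, 347 and 328 FPKM in wild type and at 192, 167 and 1008 FPKM in mNmC. Its change was -0.92 ± 0.13 (adjusted p = 0.000199) with 13 libraries and -0.09 as labelled. Its level in the library labelled replicate 3 was that of wild type at 37 °C (1006 and 1112 FPKM in replicates 1 and 2).

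Ribosomal protein genes differed between the 2 ways of counting. Of 137 ribosomal protein genes, 1 rose and 2 fell as labelled, and 9 rose and 21 fell with 13 libraries. The background, here and for ribosome biogenesis below, was 24.5% and 40.6% higher, and 2.41% and 7.39% lower. Their median change was -0.80 as labelled and -0.15 with 13 libraries, and the library labelled replicate 3 stood at a median of 0.264 times the other mNmC libraries. With upper-quartile scaling and 13 libraries 5 rose and 63 fell, where 1383 rose and 1033 fell of all 6399 tested genes. The 2 called lower as labelled were RPL2A (YFR031C-A) and RPL29 (YFR032C-A), both on chromosome VI. RPL2A stood at 2629, 2512 and 2595 FPKM in wild type and at 1047, 1061 and 447 FPKM in mNmC (-1.29 ± 0.14, adjusted p = 3.64e-05, 13 libraries), and RPL29 changed by -1.20 ± 0.24 (adjusted p = 0.00234). Ribosome biogenesis genes went the other way with 13 libraries, as 40 of 62 rose and 1 fell (17 and 2 with upper-quartile scaling, 3 and 1 as labelled). RRN3 (YKL125W), a factor of RNA polymerase I, rose by 1.11 ± 0.14 (adjusted p = 0.000105) and NOP15 (YNL110C), a factor of large subunit assembly, by 1.06 ± 0.13 (adjusted p = 7.32e-05). RRP43 (0.95 ± 0.10) of the exosome and SPB1 (0.94 ± 0.11), a methyltransferase, lie on chromosome III.

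**Figure D2:**
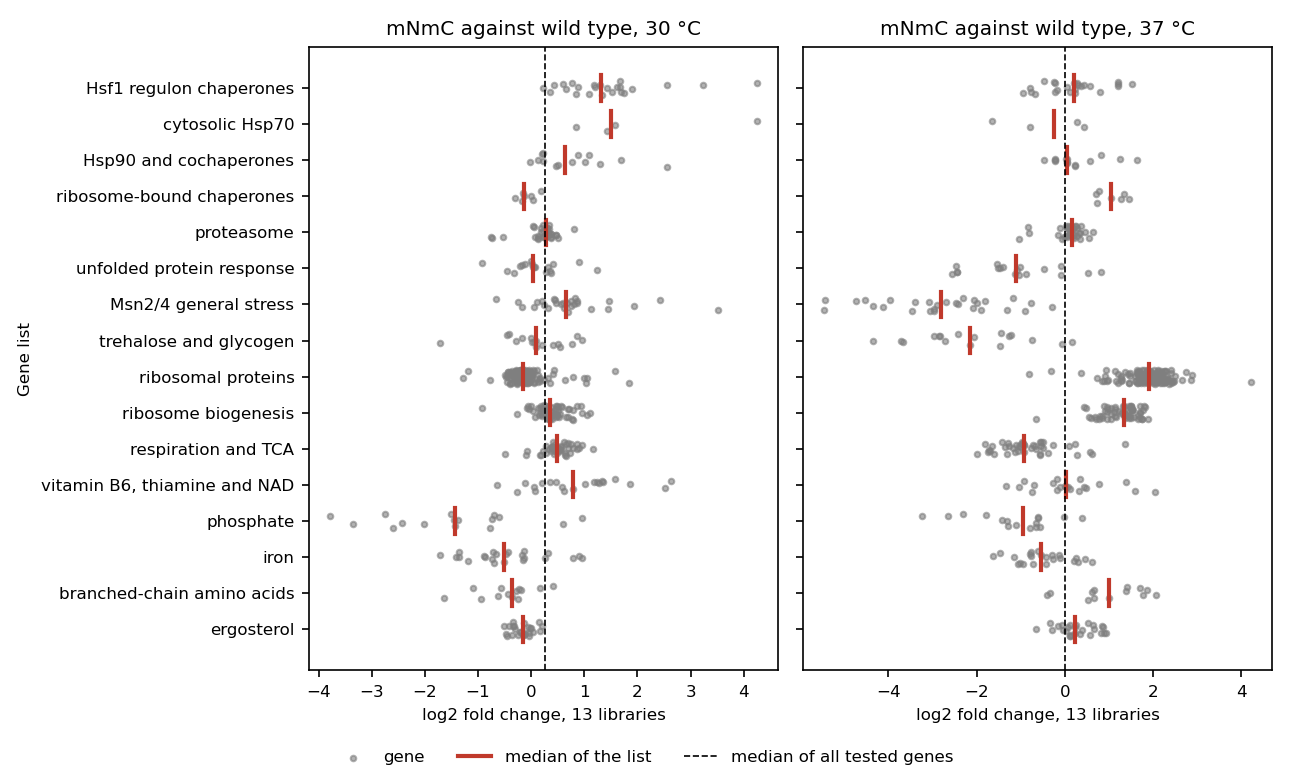
Log2 fold change of each gene in 16 lists with 13 libraries, for mNmC against wild type at 30 °C (left) and at 37 °C (right). Grey points are genes, red bars the median of a list and the dashed line the median of all tested genes (0.25 on the left); on the left the medians of the Hsf1, cytosolic Hsp70 and Hsp90 lists lie to the right of the line and those of ribosome-bound chaperones and phosphate genes to its left, and on the right the Msn2/4 median lies at -2.80.

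Phosphate genes had the lowest median of the 34 lists, -1.19 as labelled and -1.44 with 13 libraries. Of 16 genes of the phosphate regulon, 1 rose and 7 fell as labelled, and 2 rose and 14 fell with 13 libraries (background 2.41% and 7.39% lower). PHO12 (YHR215W), a secreted acid phosphatase, stood at 151, 155 and 157 FPKM in wild type and at 9.35, 11.4 and 40.0 FPKM in mNmC. The groups did not overlap, and the change was -3.16 ± 0.43 (adjusted p = 0.000327) as labelled and -3.78 ± 0.08 (adjusted p = 1.75e-10) with 13 libraries. Its near-identical paralog PHO11 (YAR071W) changed by -2.60 ± 0.15 with 13 libraries (adjusted p = 3.96e-07). VTC3 (YPL019C), of polyphosphate synthesis, stood at 148, 146 and 158 FPKM in wild type and at 35.1, 38.1 and 109 FPKM in mNmC (-2.01 ± 0.12, adjusted p = 6.59e-07).

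Phosphate transporters and their regulator were low in mNmC replicates 1 and 2 alone. SPL2 (YHR136C), a regulator of phosphate transport, stood at 140.4, 140.2 and 151 FPKM in wild type and at 14.2, 12.2 and 156 FPKM in mNmC. PHO89 (YBR296C), a phosphate transporter, stood at 214, 179.6 and 188 FPKM in wild type and at 19.3, 40.4 and 200.4 FPKM in mNmC. In both, the library labelled replicate 3 lay within or above the wild-type range, so neither passed as labelled (adjusted p = 0.102 and 0.0882), while with 13 libraries SPL2 fell by 3.35 ± 0.26 (adjusted p = 3.18e-06) and PHO89 fell by 2.75 ± 0.25 (adjusted p = 1.26e-05). PHO84 (YML123C), the high-affinity transporter, named after its values were seen, stood at 982, 972 and 974 FPKM in wild type and at 155, 211 and 1426 FPKM in mNmC (-2.43 ± 0.14, adjusted p = 4.97e-07, 13 libraries). PHO4 (YFR034C), the transcription factor that drives these genes and likewise named after its values were seen, lies on chromosome VI and stood at 60.5, 68.8 and 61.5 FPKM in wild type and at 32.0, 41.0 and 49.6 FPKM in mNmC (-0.79 ± 0.24, adjusted p = 0.0179). Its part in the fall of the regulon was not tested. GIT1, a glycerophosphoinositol transporter gene on chromosome III named after its values were seen, was among those that rose (0.96 ± 0.09, adjusted p = 1.58e-05).

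Iron uptake genes fell in 8 and rose in 4 of 23 cases as labelled, and fell in 13 and rose in 5 with 13 libraries. The background, here and for branched-chain amino acids below, was 2.41% and 7.39% lower, and 24.5% and 40.6% higher. The cell wall mannoproteins that hold siderophore iron fell together, as FIT1 (YDR534C) went from 63.6, 73.6 and 65.1 FPKM to 19.8, 20.0 and 33.4 FPKM (-1.71 ± 0.28, adjusted p = 0.000652, 13 libraries). FIT2 changed by -1.41 ± 0.13 (adjusted p = 1.46e-05), FIT3 by -1.35 ± 0.14 (adjusted p = 3.05e-05) and FET3 (YMR058W), the iron oxidase, by -1.36 ± 0.07 (adjusted p = 2.17e-07). Of 13 genes of branched-chain amino acids, 3 fell as labelled, and 9 fell and 1 rose with 13 libraries (5 falls, and 11 falls and no rise, with upper-quartile scaling). LEU1 (YGL009C), of leucine synthesis, stood at 388, 399 and 409 FPKM in wild type and at 127, 128 and 34.2 FPKM in mNmC, below wild type in every library (-1.64 ± 0.09, adjusted p = 3.44e-07). BAT1 (YHR208W), the mitochondrial aminotransferase, changed by -1.08 ± 0.12 (adjusted p = 3.65e-05) and OAC1, a mitochondrial carrier, by -0.95 ± 0.19 (adjusted p = 0.00205). None of 26 ergosterol genes rose, and 7 fell as labelled and 10 with 13 libraries (background 2.41% and 7.39% lower), or 15 and 21 with upper-quartile scaling, with ERG4 (-0.52 ± 0.07, adjusted p = 0.000171) and ERG13 (-0.47 ± 0.06, adjusted p = 7.51e-05) the largest. MET6 (YER091C), the methionine synthase, stood at 219.8, 224 and 229 FPKM in wild type and at 83.2, 92.0 and 107 FPKM in mNmC (-1.35 ± 0.09, adjusted p = 9.2e-07).

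Of 21 genes of vitamin B6, thiamine and NAD synthesis, 13 rose and none fell as labelled, while with 13 libraries 15 rose and 1 fell, leaving 5 without a call (background 24.5% and 40.6% higher). With upper-quartile scaling 11 rose and 1 fell, and 14 rose and 2 fell. BNA2 (YJR078W), the first enzyme of NAD synthesis from tryptophan, stood at 6.01, 5.31 and 5.2 FPKM in wild type and at 32.6, 39.8 and 46.2 FPKM in mNmC (2.51 ± 0.17, adjusted p = 1.05e-06, 13 libraries). SNZ1 (YMR096W), of vitamin B6 synthesis, stood at 35.6, 39.6 and 40.9 FPKM in wild type and at 195, 310.5 and 71.5 FPKM in mNmC (2.64 ± 0.18, adjusted p = 1.12e-06). Both genes were above wild type in every mNmC library, and SNZ1 was lowest in the library labelled replicate 3. Its neighbour and partner SNO1 rose by 1.58 ± 0.12 (adjusted p = 3.18e-06), and the thiamine gene THI12, a member of a near-identical family, by 1.87 ± 0.14 (adjusted p = 2.82e-06).

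Among 43 respiration and TCA cycle genes there were 15 rises and no fall as labelled, and 31 rises and 1 fall with 13 libraries. The background, here and for autophagy below, was 24.5% and 40.6% of all tested genes called higher. With upper-quartile scaling 3 rose and none fell as labelled, and 19 rose and 1 fell with 13 libraries. CIT1 (YNR001C), the citrate synthase, stood at 144, 157 and 157 FPKM in wild type and at 351, 333 and 574 FPKM in mNmC (1.16 ± 0.07, adjusted p = 7.76e-07). The isocitrate dehydrogenase genes IDH1 (0.86 ± 0.08, adjusted p = 1.83e-05) and IDH2 (0.97 ± 0.08, adjusted p = 5.03e-06) rose too. In fermentation, PDC1 (YLR044C), the main pyruvate decarboxylase, stood at 9076, 9172 and 8649.7 FPKM in wild type and at 5557, 5032 and 4983 FPKM in mNmC (-0.76 ± 0.09, adjusted p = 8.67e-05), while the minor isoforms PDC5 (1.14 ± 0.11) and PDC6 (1.43 ± 0.12) rose. Of 23 autophagy genes 13 rose as labelled and 16 with 13 libraries, among them ATG39 (YLR312C), a receptor for nuclear envelope autophagy (1.70 ± 0.14, adjusted p = 4.63e-06), and ATG8 (0.98 ± 0.10, adjusted p = 2.34e-05).

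**Figure D3:**
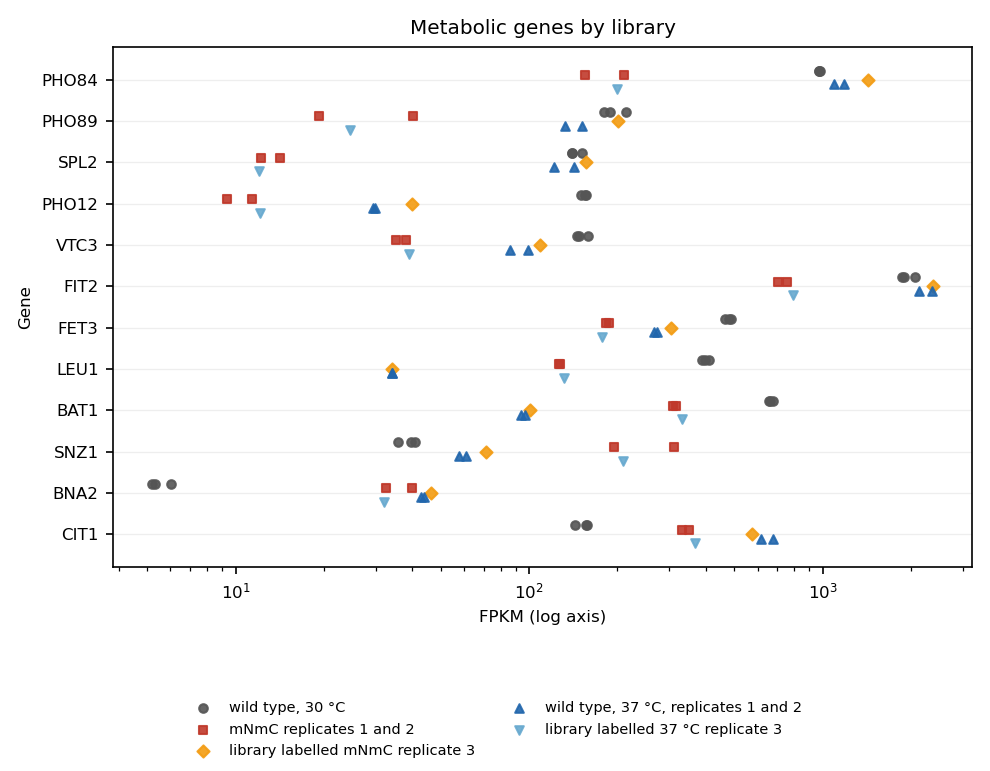
FPKM (log axis) of 12 metabolic genes in each library, with symbols as in the key. The mNmC squares lie far left of the wild-type circles for the phosphate genes, as SPL2 at 14.2 and 12.2 FPKM against 140.2 to 151, and right of them for SNZ1, BNA2 and CIT1; the library labelled mNmC replicate 3 lies with wild type at 37 °C.

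At the cell surface, 12 of 26 cell wall genes rose and 2 fell as labelled, and 14 rose and 4 fell with 13 libraries. The background was 24.5% and 40.6% higher, and 2.41% and 7.39% lower. CWP1 (YKL096W), a wall mannoprotein, rose by 1.59 ± 0.12 (adjusted p = 3.42e-06). GSC2 (YGR032W), a glucan synthase subunit, stood at 43.9, 45.5 and 44.1 FPKM in wild type and at 130.2, 132 and 132 FPKM in mNmC (1.54 ± 0.07, adjusted p = 5.37e-08). Replicates 1 and 2 of mNmC were nearly equal, and the library labelled replicate 3 lay beside them. Mating genes moved both ways. Wild type expressed the α-agglutinin gene SAG1 (YJR004C) at 707, 837 and 1004 FPKM and the a-factor gene MFA1 (YDR461W) at 13.8, 10.9 and 13.5 FPKM, the pattern of α cells. In mNmC SAG1 stood at 336, 287 and 74.2 FPKM (-1.43 ± 0.17, adjusted p = 8.31e-05) and MFA1 at 54.8, 56.4 and 53.5 FPKM (2.05 ± 0.22, adjusted p = 3.87e-05). The a-factor receptor gene STE3, another α-cell gene, named after its values were seen, changed by -0.70 ± 0.09 (adjusted p = 0.000103). STE2, the α-factor receptor gene of a cells, lies on chromosome VI and was called lower too with 13 libraries. It was likewise named after its values were seen. The a-agglutinin subunit genes AGA2 and AGA1 changed by 1.13 ± 0.23 (adjusted p = 0.00232) and -1.73 ± 0.27 (adjusted p = 0.000488).

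The naming rule also picked genes outside the lists. NCE103 (YNL036W), the carbonic anhydrase, stood at 91.8, 78.6 and 89.1 FPKM in wild type and at 400.0, 848 and 739 FPKM in mNmC (2.74 ± 0.35, adjusted p = 0.000116). SCR1, the signal recognition particle's RNA, and RPR1, the RNA of RNase P, rose by 2.91 ± 0.12 (adjusted p = 3.57e-08) and 2.59 ± 0.13 (adjusted p = 2.42e-07), and their mature forms carry no poly(A) tail. Other rises were those of SPG4 (2.80 ± 0.41), YOR011W-A (2.79 ± 0.44), YMR321C (2.82 ± 0.25), YEL073C (2.72 ± 0.16) and YCL048W-A (3.10 ± 0.11), the last on chromosome III. Among the falls, HUG1 (YML058W-A), a gene of the DNA damage response, stood at 255, 275 and 281 FPKM in wild type and at 64.4, 63.4 and 165 FPKM in mNmC (-2.06 ± 0.32, adjusted p = 0.000461). DAN1, a wall mannoprotein of anaerobic cells, changed by -1.96 ± 0.13, YHR214W-A by -2.08 ± 0.20, YHR214W by -1.87 ± 0.16, the alanine tRNA gene tA(AGC)P by -1.88 ± 0.20 and IRC7, on chromosome VI, by -1.64 ± 0.11. Adjusted p lay between 1.4e-08 and 0.000474 over these 10 rises and falls.

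Counts of the other lists are given here with 13 libraries and then as labelled. The background was 40.6% and 24.5% higher, and 7.39% and 2.41% lower. Hexose transporter genes rose in 11 of 18 cases and none fell (8 and none as labelled). Among the stable noncoding RNAs 6 of 10 rose and none fell (5 and none). Glycolysis and fermentation genes rose in 5 and fell in 11 of 22 cases (2 and 4). With 13 libraries 2 of these rises (GLK1 and PGK1) were on chromosome III and 1 of the falls (HXK1) on VI. Other amino acid synthesis genes rose in 5 and fell in 13 of 37 (3 and 5), and sulfur and methionine genes rose in 5 and fell in 7 of 23 (4 and 4). Cell cycle and histone genes rose in 2 and fell in 9 of 28 (1 and 4), and mating genes rose in 6 and fell in 7 of 23 (6 and 6). Of 27 translation factor genes 1 rose and 6 fell (none and 1), of 20 genes of Yap1 and oxidative stress 4 rose and 5 fell (3 and none), of 19 heat and stress regulators 5 rose and 4 fell (3 and none), and of 8 marker genes of laboratory strains 2 rose and 4 fell (1 and 3). Upper-quartile scaling with 13 libraries gave more falls over all tested genes (1033 against 473). In these lists it gave 21 falls for other amino acid synthesis, 17 for the cell cycle and histones and 12 for mating. Translation factors had 10, and the Yap1 list and the regulators 8 each.

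Genes on chromosomes III and VI moved together in replicates 1 and 2 of mNmC. Relative to the median of all genes of the library, the median log2 ratio to wild type of chromosome VI was -0.87 and -0.87, a level of 0.547 and 0.546 times wild type, and that of chromosome III was 0.44 and 0.42, or 1.36 and 1.34 times. The other 14 chromosomes had medians from -0.07 to 0.08 over all 15 libraries. In the library labelled mNmC replicate 3 the medians were 0.11 for chromosome VI and -0.02 for chromosome III, and mN and mC had 0.06 to 0.10 for chromosome VI. The library labelled replicate 3 of wild type at 37 °C had -0.85 for chromosome VI and 0.45 for chromosome III. Both chromosomes thus stood apart in 3 libraries: mNmC replicates 1 and 2 and the one labelled replicate 3 of 37 °C. DNA was not measured, and the part of the chromosomes in any result here was not tested.

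With 13 libraries 81 of 125 tested genes on chromosome VI were called lower and 10 higher, and 130 of 150 on chromosome III were called higher and 1 lower. As labelled it was 18 lower and 6 higher on VI, and 75 higher and none lower on III. Of all called lower with 13 libraries and placed on a chromosome, 17.8% lay on VI, which holds 2.15% of the genes. The common reference genes ACT1 and TUB2 are on VI, both named after their values were seen. ACT1 (YFL039C), encoding actin, stood at 3160.0, 3236 and 3033 FPKM in wild type and at 1473, 1349 and 2879.6 FPKM in mNmC. TUB2 (YFL037W), encoding β-tubulin, stood at 470.5, 475 and 469.8 FPKM in wild type and at 206, 205 and 376 FPKM in mNmC. Both were below 0.5 of wild type in replicates 1 and 2 alone. On the other 14 chromosomes, 2321 genes were called higher and 373 lower of 5543 with 13 libraries, and 1372 and 130 as labelled. The Hsf1 list has 1 member on these 2 chromosomes (MDJ1), and its 22 rises are all elsewhere. All but 1 of the 14 falls of phosphate genes are elsewhere too, while the falls of the proteasome genes are all on VI. So are the single falls with 13 libraries of the respiration (QCR6), autophagy (ATG18) and ribosome biogenesis (SPB4) lists. The unfolded protein response gene PDI1, called higher with 13 libraries, is on III.

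**Figure D4:**
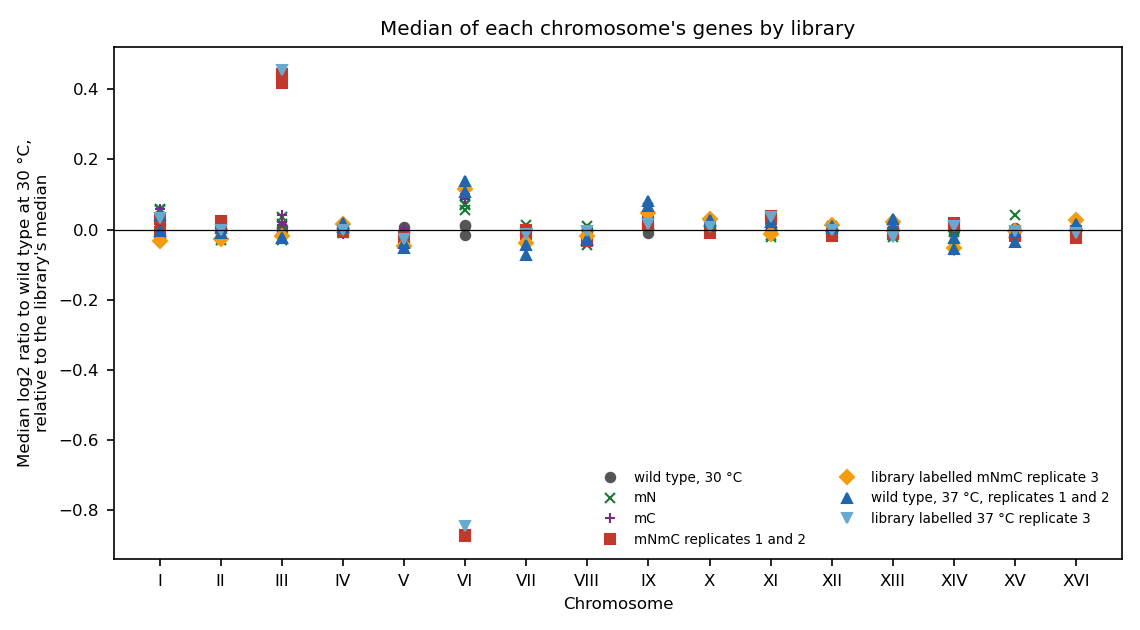
Median log2 ratio of each chromosome's genes to the mean of wild type at 30 °C, relative to the median of the same library, for the 15 libraries. Replicates 1 and 2 of mNmC and the library labelled 37 °C replicate 3 stand near -0.87 on chromosome VI and near 0.44 on chromosome III, and all other points lie between -0.07 and 0.14.

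The comparison with heat-shocked wild type asks how near the unheated double mutant comes to a heat shock. As labelled, no gene was called in limma (65 genes at an unadjusted p under 0.05). That fit cannot answer the question, because in each of these groups the library labelled replicate 3 had the profile of the other group. With 13 libraries 1794 genes were called higher in mNmC than at 37 °C (28.0%) and 1843 lower (28.8%). Of the 24 genes of the Hsf1 list, 9 were higher than at 37 °C, 5 lower and 10 did not pass, so the share called was near that of all tested genes. Members went both ways, and the median difference was 0.22 on the log2 scale. HSP82 (765 and 732 FPKM in replicates 1 and 2 at 37 °C) differed by 0.24 ± 0.14 (adjusted p = 0.179) and STI1 (568 and 514 FPKM) by 0.06 ± 0.08 (adjusted p = 0.536). BTN2 (228 and 192 FPKM at 37 °C) was higher in mNmC by 1.52 ± 0.12 (adjusted p = 7.97e-07). FES1, APJ1 and YDJ1 were higher by 1.21 ± 0.07, 1.21 ± 0.12 and 1.20 ± 0.08 (adjusted p = 1.22e-07, 7.1e-06 and 2.7e-07). SSA4 (2019.9 and 1718 FPKM at 37 °C) was lower by 0.78 ± 0.10 on the log2 scale (adjusted p = 3.72e-05), as were HSP104 (-0.77 ± 0.08), HSP42 (-0.67 ± 0.15), HSP78 (-0.94 ± 0.15) and CPR6 (-0.47 ± 0.11). The stress-induced SSA3 was lower by more (-1.66 ± 0.11, adjusted p = 3.79e-07).

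General stress genes lay far under the heat-shock level. Of the 28 Msn2/4 genes 27 were lower than at 37 °C and none higher, with a median difference of -2.80. HSP12, at 16693 and 15889 FPKM in replicates 1 and 2 at 37 °C, differed by -4.73 ± 0.42 (adjusted p = 2.48e-06) and HSP26 by -5.20 ± 0.20 (adjusted p = 5.18e-09). Of 17 trehalose and glycogen genes 15 were lower, and of 18 genes of the unfolded protein response 14 were lower and 2 higher. Ribosome genes lay above it, as 133 of 137 ribosomal protein genes and 61 of 62 ribosome biogenesis genes were higher than at 37 °C. Among genes the rule named for this comparison, YMR321C (2.15 ± 0.27), GFD2 (2.30 ± 0.20, on chromosome III) and CGR1 (2.05 ± 0.17), a ribosome assembly gene, were higher. GSY1 (-2.97 ± 0.10), SPL2 (-3.23 ± 0.28) and YOL014W (-2.91 ± 0.15) were lower.

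**Figure D5:**
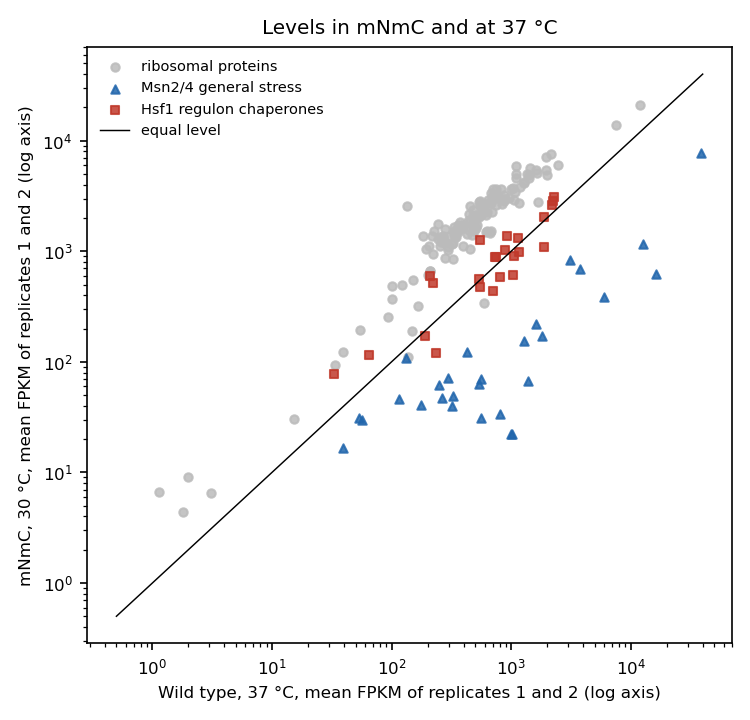
Mean FPKM of mNmC replicates 1 and 2 against mean FPKM of wild type at 37 °C replicates 1 and 2 (both log axes), with a point per gene of 3 lists and a line of equal level. Chaperones of the Hsf1 list lie around the line (9 called higher and 5 lower of 24), Msn2/4 genes below it and ribosomal protein genes mostly above it.

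Most chaperone genes of the Hsf1 list were higher in mNmC than in mN, and most were higher than in mC. Replicate 1 of mN stood apart from its group. Its Spearman correlation with mN replicates 2 and 3 was 0.981 and 0.979, against 0.997 between those replicates. With 13 libraries, 2536 genes were called higher and 678 lower in mNmC than in mN (39.6% and 10.6%), and 1769 higher and 609 lower than in mC (27.6% and 9.52%). Of the 24 Hsf1 list genes, 23 were higher in mNmC than in mN and none lower, and 16 were higher than in mC and 2 lower. SSA4 stood at 234 ± 17.8 FPKM in mN (SD, n = 3) and at 169 ± 8.54 FPKM in mC (n = 3), and mNmC was higher than them by 2.21 ± 0.09 and 2.67 ± 0.09 (adjusted p = 6.76e-08 and 1.74e-08). HSP82 stood at 280.3 ± 57.5 FPKM in mN and at 493 ± 32.7 FPKM in mC, and mNmC was higher by 1.67 ± 0.13 and 0.84 ± 0.13 (adjusted p = 4.42e-06 and 0.00058). For SSA2 mNmC differed from mN (0.74 ± 0.11, adjusted p = 0.000294) and not by the test from mC (0.18 ± 0.11, adjusted p = 0.195). HSP60 (-0.27 ± 0.07, adjusted p = 0.01) and MDJ1 (-0.54 ± 0.19, adjusted p = 0.0496) were lower in mNmC than in mC. HSF1 itself stood at 101 ± 12.6 FPKM in mN and at 246 ± 15.5 FPKM in mC, and mNmC was lower than both (-0.84 ± 0.10, adjusted p = 0.000121, and -2.13 ± 0.10, adjusted p = 2.68e-07). PHO12 stood at 89.7 ± 5.48 FPKM in mN and at 125 ± 5.56 FPKM in mC, so mNmC was lower by 3.0 ± 0.08 and 3.47 ± 0.08 on the log2 scale (adjusted p = 4.43e-09 and 8.88e-10).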

How the data were processed

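RNA was sequenced from 15 yeast libraries, and 6 of them make the comparison. Per the labels' protocols, RNA was taken with hot phenol, selected on oligo(dT) and copied from random hexamers, with no marking of strands stated. The deposited values are FPKM, which the authors scaled by gene length and library reads, as the values show. Tools named in the submitters' processing notes are HTSeq 0.6.1, TopHat2 2.0.12 and Bowtie2 2.2.3 (build and annotation: not given in the sources used here). Values were whole multiples of 1 read for 99.87 to 99.89% of single-exon genes above 0 FPKM. The tolerance was 0.01 read and widened in proportion for genes with many reads. The step between values gave the reads per library.

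Values were taken as log2(FPKM + 1), which understates changes of low genes, and filtered at 1 FPKM in 3 libraries. limma 3.58.1 in R 4.3.3 fitted a mean per group with a variance trend to 15 libraries, or to 13 without the libraries labelled replicate 3 of mNmC and of wild type at 37 °C. In the latter mNmC has 2 libraries. The Benjamini-Hochberg adjustment ran over all 6399 genes, with a call under 0.05. The fit was tested on simulated data. R64 from RefSeq matched 6048 identifiers and gave names, chromosomes and promoters. Tables and figures were made with pandas 2.3.3, matplotlib 3.10.9 and numpy 2.4.6 in Python 3.11.15.

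The members and the 34 gene lists were chosen with earlier results of these data known. The rule named HSF1, the 12 highest and 12 lowest changes with 13 libraries among genes called the same way in both fits averaging 10 FPKM or more with no overlap between the groups, members of the chaperone lists, up to 4 members of each other list, and 6 genes each way against 37 °C. A short protein or RNA gene that overlaps another cannot be told apart from it without strands. No batch is given in the labels.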

Additional observations from a re-analysis of the deposited data

Results flagged for a closer look

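The library labelled wild type at 37 °C replicate 3, which stands outside the comparison of the double mutant with unheated wild type, had a median log2 ratio of 0.4542 for the genes of chromosome III and of -0.8458 for those of chromosome VI, relative to its own median. The 3 wild-type libraries at 30 °C had medians from -0.0148 to 0.0073 for chromosome III and from -0.0164 to 0.0139 for chromosome VI. The other libraries of its label had -0.0252 and -0.0242 for chromosome III. Groups of 3 libraries were not searched for outlying values.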

How the results depend on the processing

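Numbers of genes called in mNmC against wild type at 30 °C (1567 higher, 154 lower), in mNmC against mN (1455), against mC (937) and against wild type at 37 °C (0) moved with the libraries left out. With 13 libraries they were 2598, 473, 3214, 2378 and 3637, and with upper-quartile scaling as well 1383, 1033, 2768, 2276 and 3782. The replicate block with 13 libraries gave 2860, 474, 3464, 2684 and 3715. With a log2 change of at least 1 they were 358, 36, 301, 222 and 0 as labelled, and with 13 libraries, a choice made after seeing the data, 378, 56, 481, 330 and 1139. Without genes of chromosomes III and VI, likewise chosen after seeing the data, the 13 libraries gave 2458, 391, 3001, 2168 and 3429. Fits of the groups compared alone gave 1193, 92, 161, 341 and 0, and without the 2 libraries that stood apart 3312, 712, 1296, 2733 and 4173. Upper-quartile scaling as labelled gave 650, 364, 1023, 717 and 0. Leaving out 1 replicate in turn gave 901 to 1445, 75 to 170, 872 to 1692, 409 to 1010, and 0 in every case. The other filter and pseudocount, no filter, and limma without trend kept each count within 1.5 times. The causes were not tested.

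Replicates with the same number shared only a number (r = -0.042, -0.057 and -0.080 for the deviations of mNmC and wild type), and the replicate block as labelled gave 1245, 113, 1134, 714 and 0. Of the named genes' fold changes, HAC1 alone reversed, from -0.0907 to 0.2741 without mNmC replicate 1 and 0.3733 without replicate 2, with -0.9195 without replicate 3. Under the alternatives 1797 gene values kept their side of the threshold, 134 became calls and 123 lost theirs. With 13 libraries mNmC has 2 libraries. Depth limits the lowest genes: 1 read per kilobase was worth up to 0.0647 FPKM.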
